A study of Mus musculus with 7 samples.

Results

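The 72 cytoplasmic ribosomal protein genes on the autosomes are the subject here, out of 21418 autosomal protein-coding genes in GENCODE release M1 on mm9. They were chosen by symbol: Rpl or Rps followed by a number and at most 1 letter, plus Rplp0, Rplp1, Rplp2 and Rpsa, without Rps6k genes, pseudogenes and symbols of the -like form. Of the 72, 42 encode proteins of the large ribosomal subunit and 30 of the small one, and 14 lie on chromosome 7, 7 on chromosome 11 and at most 6 on any other chromosome. Rpl41 is not analysed here. The symbols, and not any measured value, decided which genes were members.

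5-Formylcytosine (5fC) was mapped in J1 mouse embryonic stem (ES) cells, a line from a 129S4/SvJae embryo, under 3 conditions with 2 pulldown libraries each. TDG KD cells (libraries bham480 and ear003) received a pool of siRNAs against Tdg, and siRNA control cells (bham479 and ear001) received a non-targeting siRNA. Both were transfected 3 times and kept without feeder cells. Wild-type cells (bham359_362 and bham470) were not transfected and grew on γ-irradiated feeder fibroblasts, so the siRNA control and wild-type cultures differ in transfection and in feeders at once. In every library 5fC was tagged with a biotin-bearing probe, the tagged DNA was captured and sequenced, and 1 input library served all 6 pulldowns as background. DNA pulldown does not show transcripts, so neither the knockdown of Tdg nor markers of the cell type could be checked in these files.

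Ribosomal proteins assemble with ribosomal RNA into the subunits of the cytoplasmic ribosome, and their genes are among the most highly transcribed of any growing cell. Their promoters are typically rich in CpG, their transcripts begin with a run of pyrimidines, several of their introns host small nucleolar RNAs (snoRNAs), and their mRNAs have left many processed pseudogenes in mammalian genomes. 5fC arises when TET enzymes oxidise 5-methylcytosine, and the glycosylase TDG removes it from DNA.

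Each library had been divided by the authors' domain caller into stretches in the state enriched, background or unconfident, each scored by how far pulldown reads exceeded input reads, on average, in its 100 bp bins. A gene is called enriched in a library here when at least 50% of the window of 1 kb on either side of its transcription start site (TSS) lay in enriched domains. The level of a window, called its excess per M reads, is the score of its domains less the library's mean score, over the uniquely placed reads in M (Mega). Gene starts in general lay above the library mean, with a median excess over all genes of 0.00114 and 0.0154 in the TDG KD libraries, 0.00164 and 0.000212 in the siRNA control libraries, and 0.0231 and 0.00587 in the wild-type libraries. A percentile is the rank of a window among the windows of all genes in the same library. The libraries held 20.4 to 45.9 M uniquely placed reads. Library bham480 stands apart, with 505 Mb in the unconfident state against 0.214 to 6.30 Mb in the others, and 18 of the 72 members were unconfident over their window there. In bham359_362, the deepest library, the median enriched domain spanned 700 bp, against 5900 to 24550 bp in the others.

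Promoters of strongly and weakly marked members are shown so that their CpGs can be set side by side. The 250 bases before the start are printed for those of the 5 highest and the 5 lowest members by mean percentile whose RefSeq start falls on the same base as the annotated one. They are read from mm9 on the strand of the gene, with each CpG in capitals. Rps15 (chr10:79754926-79755175, + strand, 14 CpGs) and Rpl13 (chr8:125626000-125626249, + strand, 17 CpGs) were enriched in 6 of 6 libraries. Rpl24 (chr16:55966138-55966387, + strand, 6 CpGs), Rps23 (chr13:91062477-91062726, + strand, 13 CpGs) and Rpl4 (chr9:64020944-64021193, + strand, 10 CpGs) were enriched in none. Over the 72 members the 250 bases held 3 to 34 CpGs, with a median of 15.5.
Rps15: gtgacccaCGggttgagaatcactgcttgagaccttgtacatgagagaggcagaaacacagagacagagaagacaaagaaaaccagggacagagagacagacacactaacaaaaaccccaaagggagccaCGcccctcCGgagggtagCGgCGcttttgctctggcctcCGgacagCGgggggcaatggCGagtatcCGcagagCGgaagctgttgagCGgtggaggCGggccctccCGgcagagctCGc
Rpl13: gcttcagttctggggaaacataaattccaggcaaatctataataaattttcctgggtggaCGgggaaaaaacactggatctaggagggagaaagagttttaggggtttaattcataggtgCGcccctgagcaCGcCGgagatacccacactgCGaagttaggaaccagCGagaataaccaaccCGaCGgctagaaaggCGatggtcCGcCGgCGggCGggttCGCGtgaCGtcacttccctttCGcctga
Rpl24: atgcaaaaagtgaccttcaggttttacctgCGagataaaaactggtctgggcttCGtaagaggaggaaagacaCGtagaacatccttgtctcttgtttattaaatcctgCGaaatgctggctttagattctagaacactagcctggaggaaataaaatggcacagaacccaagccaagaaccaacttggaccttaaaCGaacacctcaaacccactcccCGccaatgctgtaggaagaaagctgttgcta
Rps23: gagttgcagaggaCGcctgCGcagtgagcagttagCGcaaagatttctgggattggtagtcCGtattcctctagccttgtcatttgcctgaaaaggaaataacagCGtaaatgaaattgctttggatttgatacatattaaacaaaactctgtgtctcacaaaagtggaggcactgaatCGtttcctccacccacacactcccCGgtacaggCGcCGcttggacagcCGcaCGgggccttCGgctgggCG
Rpl4: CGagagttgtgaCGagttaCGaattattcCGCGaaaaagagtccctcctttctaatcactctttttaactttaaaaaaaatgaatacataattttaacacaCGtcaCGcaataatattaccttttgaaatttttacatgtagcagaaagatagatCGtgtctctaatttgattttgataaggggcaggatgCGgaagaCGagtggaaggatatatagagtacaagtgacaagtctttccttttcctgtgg

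Nearly all members start in a CpG island (CGI), counted here where 200 bp or more held over 50% GC and over 0.6 of the CpGs that base composition would give. Of the 72, 68 (94.4%) had a CGI in the window, against 54.7% of all genes. The exceptions were Rps2, Rpl13a, Rps10 and Rpl4, and for Rps2, Rpl13a and Rps10 the RefSeq start lay 1947, 7672 and 1385 bp downstream of the annotated start. The members were short, with a median length of 3305.5 bp against 15535 bp for all genes, and 28 of them (38.9%) held an annotated snoRNA gene, against 1.18% of all genes. A run of at least 5 pyrimidines starting with C lay within 20 bases of the start in 46 members (63.9%), against 47.1% of all genes. The sequence around them was rich in GC, with a median of 47.0% over 100 kb against 44.4% for all genes. Of the 40-base words in the exons of a member, a median of 63.1% occurred once in mm9 (range 26.2 to 100%), against 99.97% for all genes, and in the introns of the members 99.2%. In the window around the start the share was 93.5% for the members and 99.3% for all genes. What reads without a unique place take from the measured level of these exons was not tested.

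In wild-type cells the share of ribosomal protein genes with an enriched start was above that of all genes and close to that of CGI genes, and in 2 of the 4 siRNA libraries it was below that of all genes. In bham359_362, 48 of 72 members (66.7%) were enriched, against 52.3% of all genes and 66.7% of the 11711 genes with a CGI at the start. In bham470 it was 43 members (59.7%), against 48.4% of all genes and 56.9% of CGI genes. Among the TDG KD libraries, ear003 had 37 enriched members (51.4%), against 55.1% of all genes and 67.8% of CGI genes, and bham480 had 13 (18.1%), against 15.8% and 19.3%. Among the siRNA control libraries, bham479 had 24 (33.3%), against 44.7% of all genes and 50.4% of CGI genes, and ear001 had 30 (41.7%), against 41% and 45.3%. The members' share was above that of all genes in both wild-type libraries and bham480, below it in ear003 and bham479, and next to it in ear001.

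**Figure D1:**
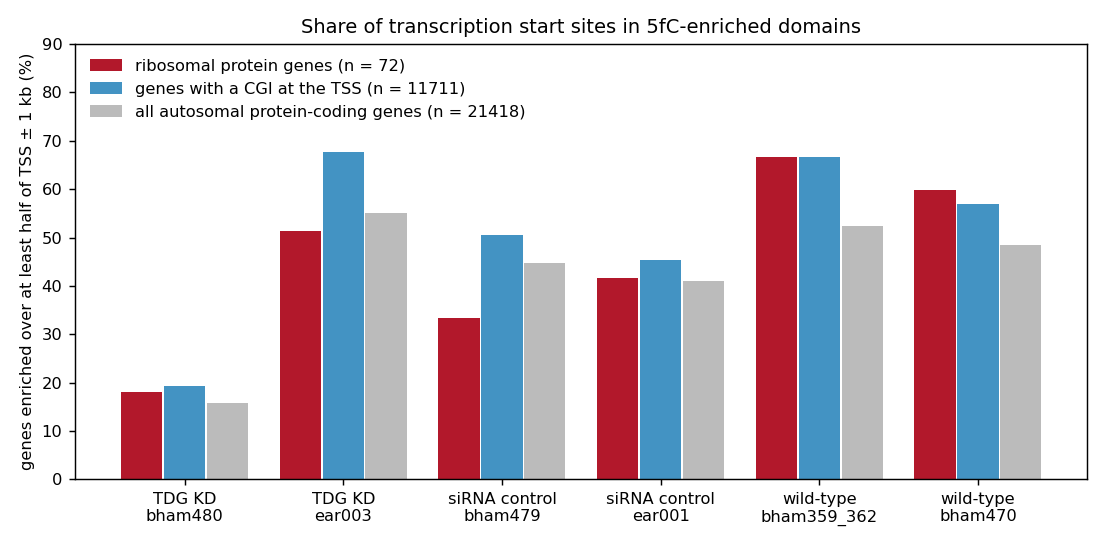
Bars show the percent of genes enriched over at least 50% of TSS ± 1 kb in each of the 6 libraries, for the 72 ribosomal protein genes, the 11711 genes with a CGI at the TSS and all 21418 autosomal protein-coding genes. The red bar of the ribosomal protein genes reaches 66.7% and 59.7% in the wild-type libraries, and 33.3% in bham479, where it is the lowest of the 3.

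Enrichment in both libraries of a condition was found for 11 members (15.3%) in TDG KD cells, against 14.9% of all genes and 18.5% of CGI genes. In siRNA control cells it was 18 members (25%), against 34.2% and 38.02%, and in wild-type cells 33 members (45.8%), against 38.6% and 47.2%. The wild-type share was thus above that of all genes and close to that of CGI genes, and the siRNA control share was below both. The count for TDG KD rests on bham480: ear003 alone gave 37. For the siRNA control, ear001 alone gave 30. In the large subunit the shares were 16.7% in TDG KD, 26.2% in siRNA control and 47.6% in wild type, and in the small subunit 13.3%, 23.3% and 43.3%, so neither subunit carried the pattern alone. No test was made of these shares, and members in the same domain are not independent.

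The genes differed widely among themselves. 10 members (13.9%) were enriched in all 6 libraries, against 10.9% of all genes and 13.4% of CGI genes, among them Rpl7a, Rpl10a, Rpl13, Rpl18, Rpl22, Rps15, Rps18 and Rps21. Without bham480 the count was 16, with Rpl8, Rpl12, Rpl35, Rpl36, Rps2 and Rps14 added. 11 members (15.3%) were enriched in none, against 29.6% of all genes and 15.9% of CGI genes: Rpl4, Rpl24, Rpl30, Rpl34, Rps3, Rps6, Rps9, Rps23, Rps26, Rps27a and Rps29. Without bham359_362 this count was 20, because 9 members were enriched in that library and in no other. Of all genes 5.34% were enriched in that library alone, and of CGI genes 7.42%. The remaining counts were 15 members enriched in 1 library, against 12.0% of the 21153 genes with a value in every library, 11 in 2 libraries, against 10.0%, 9 in 3, against 8.84%, 9 in 4, against 10.9%, and 7 in 5, against 18.5%. The 9 with bham359_362 alone were Rpl5, Rpl15, Rpl21, Rpl27a, Rps3a, Rps12, Rps13, Rps15a and Rps20. In Rps13 the excess was -0.00412 and -0.0109 in the TDG KD libraries, -0.00891 and -0.00272 in the siRNA control libraries, and 0.0460 and -0.00465 in the wild-type libraries. Its window was high in 1 wild-type library and below the library mean in the other 5.

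**Figure D2:**
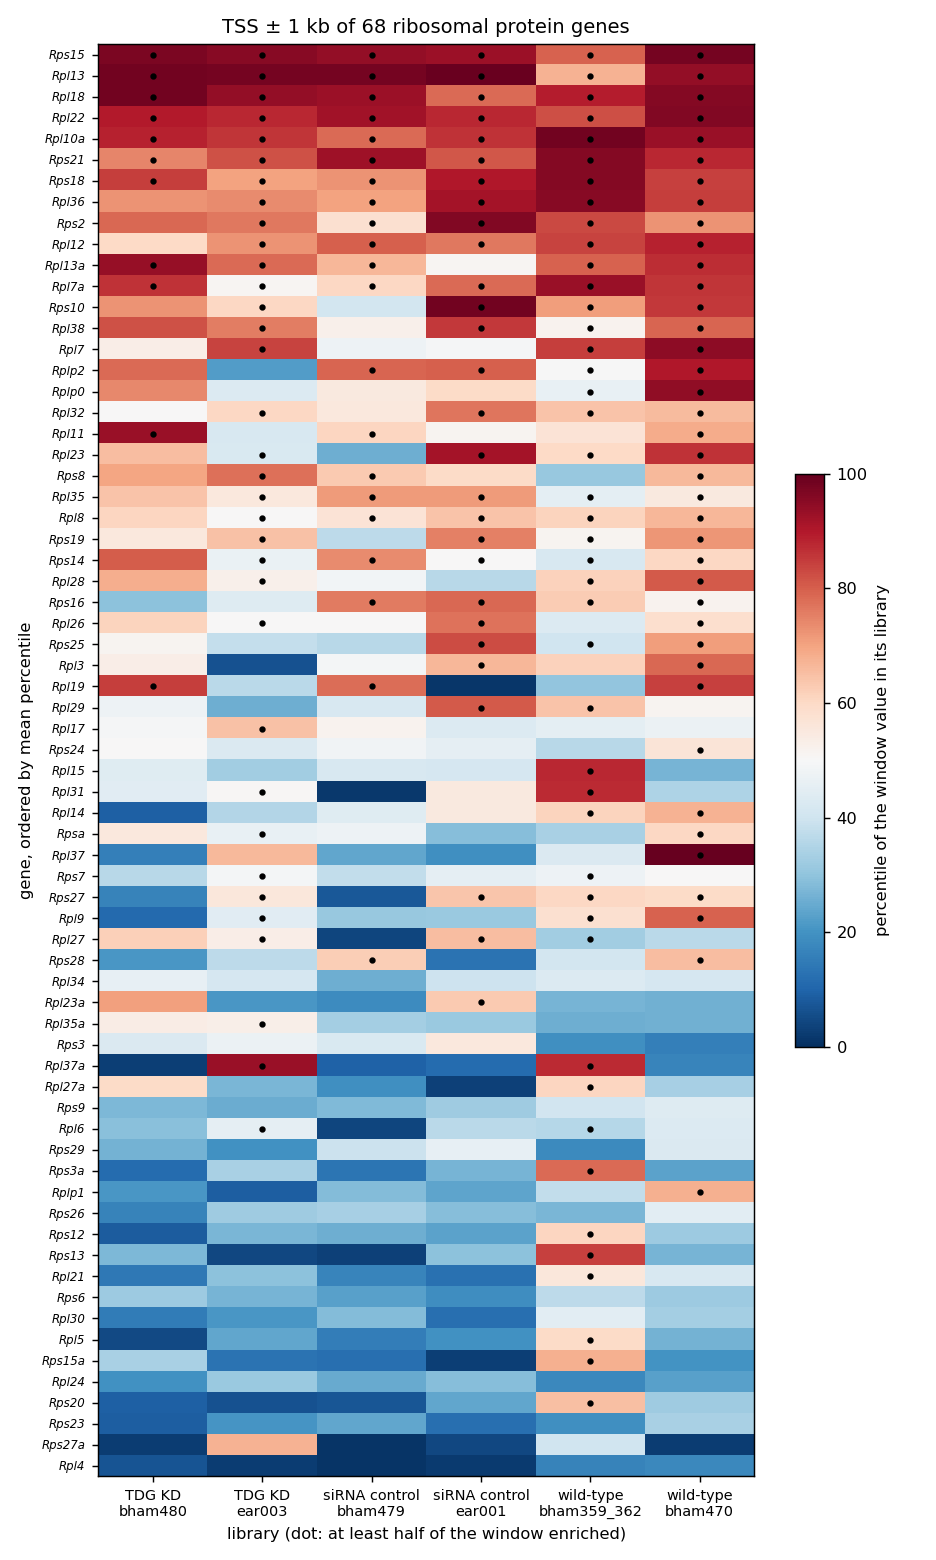
Each row is 1 of 68 of the 72 ribosomal protein genes, ordered from the highest to the lowest mean percentile, and each column 1 library. Colour gives the percentile of the TSS window among all genes of the library and a dot a window enriched over at least 50%: the rows at the top are red, with dots in 6 of 6 libraries for Rps15 and Rpl13, the rows at the bottom are blue, and a group of low rows has its only dot in bham359_362.

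Rps15, a protein of the small subunit at 10:79755176-79756859, had the highest mean percentile of the members, 92.8. Its excess was 0.0219 and 0.0398 in the TDG KD libraries, 0.0242 and 0.0133 in the siRNA control libraries, and 0.0420 and 0.0365 in the wild-type libraries. It lay far above the library mean in every library, and its TDG KD values straddled the higher control value. Rpl13, of the large subunit, followed with a mean percentile of 92.4, and its excess was 0.0240 and 0.0459 in the TDG KD libraries, 0.0306 and 0.0246 in the siRNA control libraries, and 0.0335 and 0.0307 in the wild-type libraries. It lies on chromosome 8, whose mean was above the library mean by 0.00849 to 0.0120 excess per M reads in the 4 siRNA libraries and by 0.00372 to 0.00475 in the wild-type libraries. Over the mean of chromosome 8, Rpl13 still had 0.0155 and 0.0339 in the TDG KD libraries, 0.0191 and 0.0145 in the siRNA control libraries, and 0.0287 and 0.0269 in the wild-type libraries. Rpl18 and Rpl22 of the large subunit were also among the 5 highest, with mean percentiles of 91.4 and 89.3. For Rpl18 the RefSeq start lay 2614 bp downstream of the annotated one.

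At the other end, Rpl4, a large-subunit protein whose introns hold 5 annotated snoRNA genes, had the lowest mean percentile, 7.87. Its excess was -0.00903 and -0.0117 in the TDG KD libraries, -0.0105 and -0.00640 in the siRNA control libraries, and -0.00573 and -0.00667 in the wild-type libraries. Every value was below the mean of its library. Rps27a, which encodes ubiquitin fused to a ribosomal protein, had a mean percentile of 19.6 and an excess of -0.0115 and 0.0234 in the TDG KD libraries, -0.0104 and -0.00531 in the siRNA control libraries, and 0.0171 and -0.00990 in the wild-type libraries. It was low in bham480 and in both siRNA control libraries, and above the library mean in ear003 and bham359_362, so that the replicates of TDG KD and of wild type fell on opposite sides of the mean. Rps23, of the small-subunit decoding centre, had -0.00822 and -0.00674 in the TDG KD libraries, -0.00513 and -0.00435 in the siRNA control libraries, and -0.00266 and -0.00284 in the wild-type libraries, again below the mean in 6 of 6 libraries. Rps20 and Rpl24 had mean percentiles of 23.9 and 24.2.

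By its mean over the libraries, the level of a member went with the GC content of the sequence around it. It went only weakly with the CpG content of the start. The 17 members enriched in 5 or 6 libraries lay in 100 kb of 45.7 to 54.5% GC, median 51.2%, and the 11 enriched in none in 39.6 to 48.2%, median 43.5%. The 44 members in between had a median of 46.8%. CpGs per 100 bp of the window had medians of 4.90, 3.80 and 4.80 in the same 3 sets. Across the 72 members the Spearman correlation of the mean percentile was 0.80 with the GC content of 100 kb, 0.56 with that of the window, 0.51 with the number of other starts within 50 kb and 0.16 with CpGs per 100 bp. Across all 21153 genes with a value in every library the first was 0.83 and the last 0.33. By library the correlation with the GC of 100 kb was 0.80 and 0.48 for the members in bham480 and ear003, 0.73 and 0.75 in bham479 and ear001, and 0.29 and 0.71 in bham359_362 and bham470. With CpGs per 100 bp it was 0.096 and 0.15, 0.12 and 0.015, and 0.23 and 0.18 in the same order. In bham359_362, the library with the narrowest domains, both correlations were thus low and close to each other. These are descriptions across genes, which share libraries, domains and base composition, and the part of GC-dependent amplification or sequencing in them was not tested.

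Beside genes of like surroundings, the ribosomal protein genes were low. Set against the median of all genes whose 100 kb differed by at most 0.5 percentage points of GC, 61 of the 72 members (84.7%) had the lower mean percentile, against 49.9% of all genes and 47.7% of CGI genes. The median difference was -11.9 percentile points, and it was -9.59 for the large subunit and -12.6 for the small subunit. The lower share held in each library, with 56 and 59 members below the median in bham480 and ear003, 63 and 54 in bham479 and ear001, and 46 and 49 in bham359_362 and bham470. The comparison was chosen after the plot of level against GC had been seen, and it was given no test. Rpl4, Rpl23a and Rpl29 lay farthest below, with differences of -37.5, -37.1 and -35.7 points, and Rpl7 and Rpl13 farthest above, with 23.5 and 17.6 points. Sequence that is not unique moved only weakly with this difference, with a Spearman correlation of 0.034 across the 72 members. Of the 24 members with at least 95% of the words in their window unique, 20 were below the median, with a median difference of -4.77 points over the 24, and of the other 48 members 41 were, with a median difference of -12.9 points. The part of reads lost to pseudogenes was not tested.

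**Figure D3:**
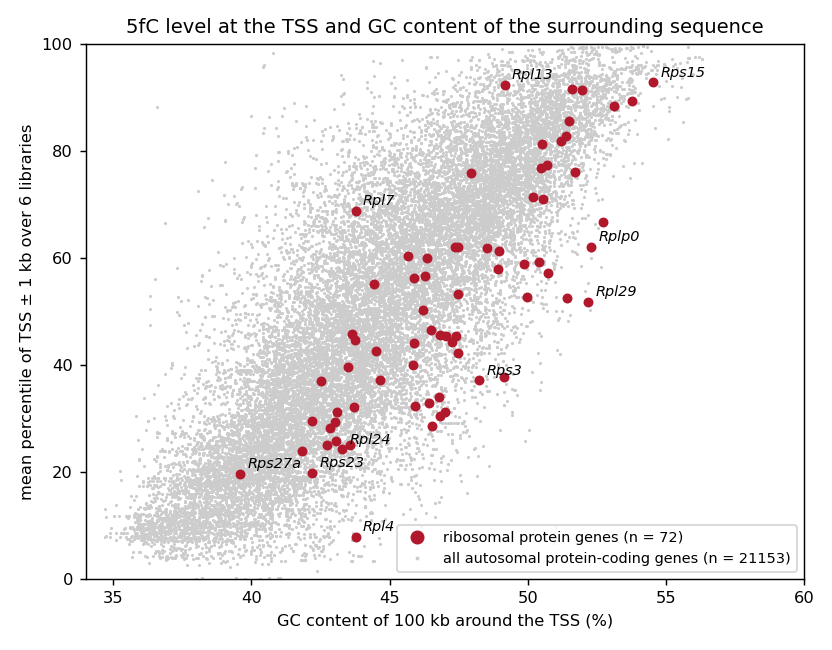
Each point is a gene, with the GC content of 100 kb around its TSS on the x axis and the mean percentile of TSS ± 1 kb over the 6 libraries on the y axis, for the 72 ribosomal protein genes in red and 21153 autosomal protein-coding genes in grey. Both sets rise from left to right, and 61 of 72 red points lie below the median of grey points of like GC.

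The narrow domains of bham359_362 showed where around the annotated start the signal lay. At the annotated start itself 56 of 72 members (77.8%) were in an enriched domain in this library. This was above the 64.2% of all genes and below the 82.2% of the other CGI genes. At 1 kb upstream it was 22 members (30.6%), at 500 bp upstream 31 (43.1%), at 100 bp downstream 62 (86.1%), at 500 bp downstream 60 (83.3%) and at 1 kb downstream 44 (61.1%). The other CGI genes had 35.7% at 1 kb upstream, 84.5% at 100 bp downstream, 74.4% at 500 bp downstream and 49.3% at 1 kb downstream. The members' share was the lower one at 500 bp to 2 kb upstream and at the start itself. It was the higher one at 500 bp and 1 kb downstream, without a test of the difference. Of the 51 members with a placed RefSeq start, 42 had it within 200 bp of the annotated start. All the others of the 51 had it farther downstream. The part of displaced starts in the downstream shares was not tested. At 2 kb and 5 kb downstream the members' share was also the higher one, 50.0% at both points against 37.6% and 39.8%. At 5 kb upstream it was the higher one, 41.7% against 35.2%. The median length was 3305.5 bp for the members and 23724 bp for CGI genes. The point 5 kb downstream thus lay beyond the end of most members and inside most CGI genes. In ear003 the members had 43.1% at 2 kb upstream and 58.3% at 500 bp downstream, against 49.9% and 68.2% of the other CGI genes. In bham470 they had 47.2% and 61.1% at the same points, against 48.7% and 57.3%. In bham479 the share was 29.6% at 2 kb upstream and 43.1% at 5 kb downstream, with no peak at the start, and in bham480 and ear001 it changed less. The enriched domain that held a member's start had a median width of 376600 bp in bham480, 33100 bp in ear003, 65700 bp in bham479, 222850 bp in ear001, 2000 bp in bham359_362 and 57100 bp in bham470. A level in the libraries with wide domains is therefore that of a wide region around the gene.

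**Figure D4:**
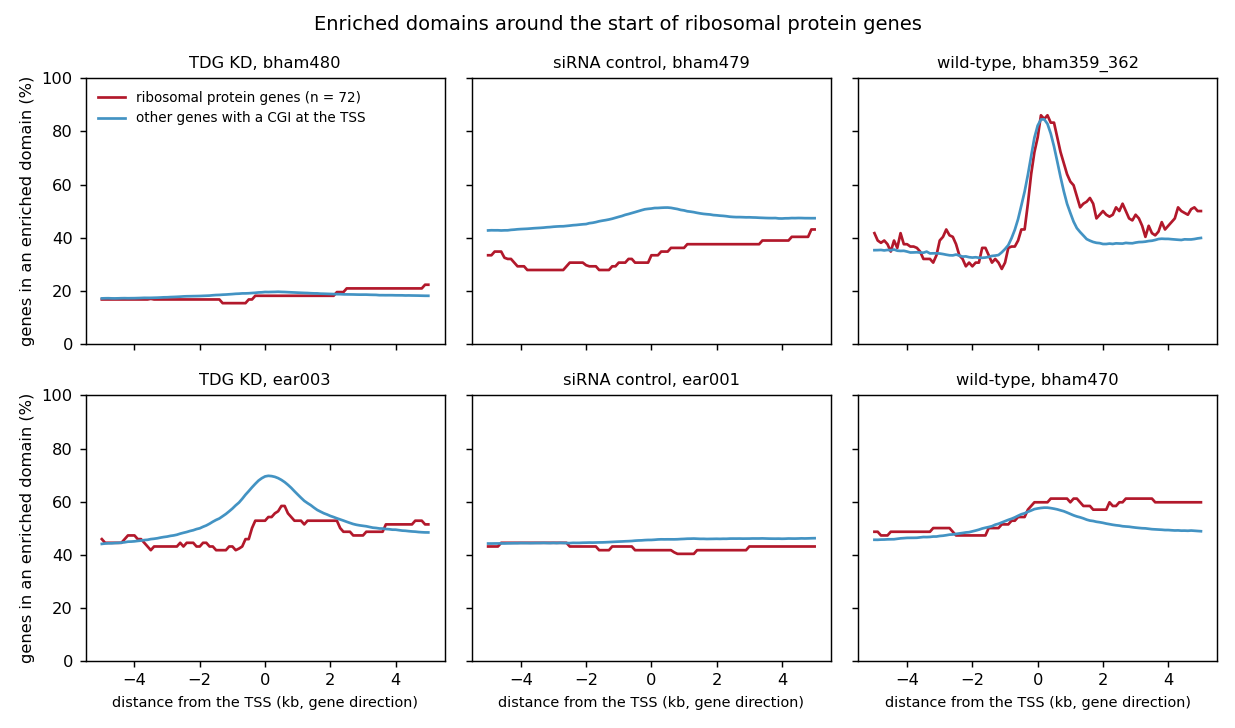
Lines give the percent of genes that lie in an enriched domain at each distance from the TSS, from 5 kb upstream to 5 kb downstream in the direction of the gene, for the 72 ribosomal protein genes in red and the other genes with a CGI at the TSS in blue. A peak at the start is seen in bham359_362, where the red line reaches 86.1% at 100 bp downstream, and smaller rises in ear003 and bham470, where it reaches 58.3% and 61.1% at 500 bp downstream.

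The gene body, from 1 kb after the start to the end of the gene, could be measured in 67 members. At least 50% of it was enriched in 12 members (17.9%) in bham480, against 16.2% of all genes, and in 34 (50.7%) in ear003, against 48.9%. In bham479 it was 24 (35.8%), against 47.3%, and in ear001 29 (43.3%), against 46.2%. In bham359_362 it was 33 (49.3%), against 39.3%, and in bham470 39 (58.2%), against 48.8%. The share of bodies was above that of all genes in both wild-type libraries and below it in both siRNA control libraries. In bham480 and ear003 it was only slightly above that of all genes, and below the 18.05% and 52.2% of CGI genes. It was also below the 49.5% and 48.7% of CGI genes in bham479 and ear001. Only in bham359_362 and bham470 was it above the share of CGI genes, 41.7% and 52.05%. These differences were not tested. Within the bodies, exons and introns had close values: 20.4% of exon and 16.5% of intron sequence was enriched in bham480, 41.4% and 42.2% in ear003, 30.3% and 27.3% in bham479, 33.3% and 31.9% in ear001, 41.2% and 40.5% in bham359_362, and 49.1% and 51.9% in bham470. The models of Rpl24 and Rpl11 span 42639 and 25164 bp, far beyond the other members.

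Genes were also followed by what their proteins do. Rplp0, Rplp1 and Rplp2 form the acidic stalk that recruits translation factors. Rplp0 had an excess of 0.0103 and 0.00747 in the TDG KD libraries, 0.00617 and 0.00375 in the siRNA control libraries, and 0.0210 and 0.0312 in the wild-type libraries. Rplp1 had -0.00512 and -0.00972 in the TDG KD libraries, -0.00427 and -0.00322 in the siRNA control libraries, and 0.0155 and 0.0193 in the wild-type libraries, and Rplp2 had 0.0116 and -0.00613 in the TDG KD libraries, 0.0178 and 0.00987 in the siRNA control libraries, and 0.0231 and 0.0285 in the wild-type libraries. The wild-type values were the highest of the 3 conditions for each of the stalk genes, and Rplp2 was above the library mean in bham480 and below the library mean in ear003. Rpsa, the small-subunit protein also described as a laminin receptor, had 0.00370 and 0.0124 in the TDG KD libraries, 0.000562 and -0.00278 in the siRNA control libraries, and 0.0128 and 0.0160 in the wild-type libraries. Its TDG KD values lay above its control values and below its wild-type values.

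Rpl5, Rpl11 and Rpl23 bind the p53 regulator Mdm2 when ribosome assembly is disturbed. Rpl5 had -0.00991 and -0.00555 in the TDG KD libraries, -0.00656 and -0.00363 in the siRNA control libraries, and 0.0287 and -0.00477 in the wild-type libraries. Only bham359_362 was above its library mean at this gene. Rpl11 had 0.0177 and 0.00446 in the TDG KD libraries, 0.0111 and 0.000516 in the siRNA control libraries, and 0.0269 and 0.0196 in the wild-type libraries, and Rpl23 had 0.00760 and 0.00540 in the TDG KD libraries, -0.00488 and 0.0128 in the siRNA control libraries, and 0.0289 and 0.0266 in the wild-type libraries. The replicates of the siRNA control lay far apart at Rpl11 and Rpl23, in opposite directions.

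Rps6, the substrate of S6 kinases, had -0.00361 and -0.00471 in the TDG KD libraries, -0.00536 and -0.00371 in the siRNA control libraries, and 0.0151 and -0.00342 in the wild-type libraries. It was above the library mean in bham359_362 alone and was enriched in no library. Rps3, which sits at the mRNA entry channel and has also been assigned a role in DNA repair, had -0.00138 and 0.0130 in the TDG KD libraries, -0.00125 and 0.00176 in the siRNA control libraries, and -0.00225 and -0.00701 in the wild-type libraries. It was the single member (1.39%) whose siRNA control values both lay above both wild-type values, against 12.7% of all genes and 2.16% of CGI genes. Rpl13a, a target of kinases in the interferon response, had 0.0180 and 0.0277 in the TDG KD libraries, 0.0135 and 0.000437 in the siRNA control libraries, and 0.0420 and 0.0270 in the wild-type libraries, and the start used lay 7672 bp upstream of the RefSeq start. Rpl22, which also binds viral RNA, had 0.0155 and 0.0328 in the TDG KD libraries, 0.0227 and 0.0118 in the siRNA control libraries, and 0.0443 and 0.0339 in the wild-type libraries. Both were above the library mean in 6 of 6 libraries, with the highest value in bham359_362.

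Rps19 and Rps14 are known from human disease, as genes mutated in Diamond-Blackfan anaemia and lost in the 5q- syndrome. Rps19 had 0.00362 and 0.0225 in the TDG KD libraries, -0.00264 and 0.00898 in the siRNA control libraries, and 0.0237 and 0.0212 in the wild-type libraries, and Rps14 had 0.0122 and 0.0125 in the TDG KD libraries, 0.0160 and 0.000276 in the siRNA control libraries, and 0.0184 and 0.0160 in the wild-type libraries. Both were higher in ear003 and in the wild type than in ear001. Rpl38 and Rpl24 are the genes of the mouse mutants Tail short and Belly spot and tail. Rpl38 had 0.0127 and 0.0266 in the TDG KD libraries, 0.00318 and 0.0112 in the siRNA control libraries, and 0.0240 and 0.0239 in the wild-type libraries. Its TDG KD values lay above its control values. Rpl24 had -0.00526 and -0.00308 in the TDG KD libraries, -0.00504 and -0.00278 in the siRNA control libraries, and -0.00466 and -0.00550 in the wild-type libraries, below the mean in 6 of 6 libraries.

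Rps2 had 0.0116 and 0.0270 in the TDG KD libraries, 0.00915 and 0.0159 in the siRNA control libraries, and 0.0447 and 0.0213 in the wild-type libraries, and Rpl3, at the peptidyl transferase centre, had 0.00280 and -0.0105 in the TDG KD libraries, 0.00120 and 0.00668 in the siRNA control libraries, and 0.0298 and 0.0238 in the wild-type libraries. Rps2 was above the library mean throughout and Rpl3 below it in ear003 only. The start used for Rps2 lay 1947 bp upstream of the RefSeq start.

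The comparison of TDG KD with siRNA control asks where 5fC changes, relative to the library mean, when its removal is hindered. The scores are relative to input and are centred on the library mean, so a rise shared by the whole genome would not show here. The paper reports, from mass spectrometry, a rise in the overall amount of this base after the knockdown. Whether the members shared in such a rise was not tested. At the start of the members no change relative to the library mean passed the test, and the direction differed between the pairs of libraries. Both TDG KD values lay above both control values in 13 members (18.1%), against 11% of all genes and 13.8% of CGI genes. Both lay below them in 7 members (9.72%), against 12.7% and 10.8%. The median difference over the 72 members was 0.00393 excess per M reads with a median SE of 0.00895, against 0.00226 over all genes tested. Between ear003 and ear001 the median difference was 0.00830 and 48 members (66.7%) were higher in TDG KD. Over all genes it was 0.00998 with 63.0% higher, and over CGI genes 0.0148 with 75.8% higher. Between bham480 and bham479 it was -0.000179 with 34 members (47.2%) higher. Over all genes this was -0.00227 with 36.6% higher, and over CGI genes -0.00318 with 30.1% higher. What the prefix of the library names stands for is not given in the sources used here, and the median difference had opposite signs in the 2 pairs. By limma over 21153 genes with Benjamini-Hochberg adjustment 0 of 72 members had an adjusted p below 0.05, against 0% of all genes, and 0 had an unadjusted p below 0.05, against 0.917%.

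**Figure D5:**
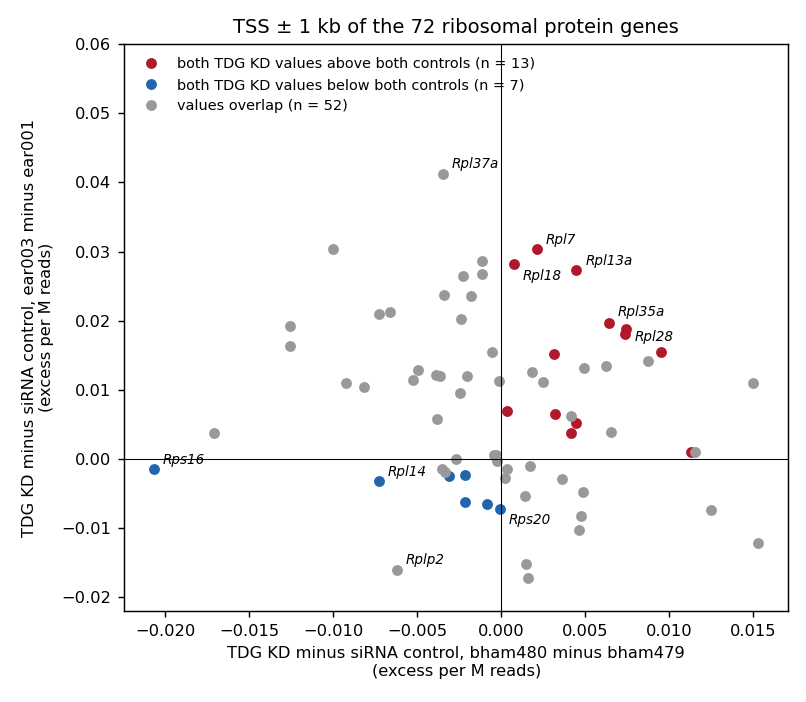
Each point is 1 of the 72 ribosomal protein genes, with the difference in TSS level, TDG KD minus siRNA control, in the pair bham480 and bham479 on the x axis and in the pair ear003 and ear001 on the y axis, in excess per M reads. 13 members with both TDG KD values above both controls are red and 7 with both below are blue, and 34 of 72 points lie above 0 on the x axis and 48 of 72 on the y axis.

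Among the members whose values did not overlap, Rpl7, Rpl13a, Rpl18, Rpl28 and Rpl35a, all of the large subunit, had the largest TDG KD minus control differences. For Rpl13a and Rpl18 the RefSeq start lay 7672 and 2614 bp downstream of the start used. Rpl28 had 0.00851 and 0.0168 in the TDG KD libraries, 0.00107 and -0.00201 in the siRNA control libraries, and 0.0298 and 0.0245 in the wild-type libraries. The mean was 0.0127 ± 0.00588 in TDG KD cells, -0.000472 ± 0.00218 in siRNA control cells and 0.0272 ± 0.00371 in wild-type cells (SD, n = 2 each). The difference of 0.0131 had an SE of 0.00681 (limma, Benjamini-Hochberg adjusted p = 1.00), the lowest p of any member in this comparison. Rpl7 had 0.00266 and 0.0304 in the TDG KD libraries, 0.000520 and 4.07e-05 in the siRNA control libraries, and 0.0461 and 0.0315 in the wild-type libraries, a difference of 0.0162 with an SE of 0.0108. Rpl35a had 0.00292 and 0.0172 in the TDG KD libraries, -0.00349 and -0.00254 in the siRNA control libraries, and 0.00549 and -0.00479 in the wild-type libraries, with the ear003 value above and the bham480 value between the wild-type values. The most negative differences belonged to Rps16, Rpl14, Rps29, Rplp1 and Rps20, 3 of them of the small subunit. Rps16 had -0.00384 and 0.00816 in the TDG KD libraries, 0.0168 and 0.00965 in the siRNA control libraries, and 0.0308 and 0.00923 in the wild-type libraries, a difference of -0.0111 with an SE of 0.00953, and its bham480 value alone was below the library mean. Rpl14 had -0.00808 and -0.00150 in the TDG KD libraries, -0.000813 and 0.00171 in the siRNA control libraries, and 0.0297 and 0.0192 in the wild-type libraries. In this gene the TDG KD and control values were next to each other and both far below the wild type. With the library mean left in, as the values were deposited, 0 of 72 members had TDG KD above control, against 0.695% of all genes, and 17 had it below, against 30.8%, so which of these counts is the larger depends on taking off the mean of bham480, which was -0.277 reads per bin against 0.0386 to 0.793 in the other libraries.

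In the gene bodies the TDG KD minus control difference had a median of 0.00152 over 67 members and was positive in 42. By limma over 18551 genes 0 members were called, against 0% of all genes, and 2 had an unadjusted p below 0.05, against 0.906%. These were Rpl13a, with a difference of 0.0179, and Rpl6, of the large subunit, with 0.0137 (limma, Benjamini-Hochberg adjusted p = 0.994 for both). The body of Rpl13a had 0.0180 and 0.0277 in the TDG KD libraries, 0.00438 and 0.00547 in the siRNA control libraries, and 0.0349 and 0.0270 in the wild-type libraries. Its TDG KD values were above its control values, and the ear003 value above 1 of its wild-type values. The RefSeq start of Rpl13a lay 7672 bp downstream of the start used, and so inside this body.

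Between siRNA control and wild type the members moved mainly one way, lower in the control, without any passing the adjusted test. Both siRNA control values lay below both wild-type values at the start of 47 members (65.3%), against 44.2% of all genes and 54.5% of CGI genes. The median difference was -0.0173 excess per M reads over the members, with a median SE of 0.00895, and -0.0115 over all genes tested. 69 members had a negative difference and 3 a positive one. By limma 0 of 72 members were called, against 0% of all genes, and 17 (23.6%) had an unadjusted p below 0.05, each lower in the control, against 10.6%. On percentiles, which take out the shift of all genes, 26 of 72 members in place of 47 had both control values below both wild-type values, against 18.6% of all genes on the same scale. Feeders and transfection cannot be told apart from the condition. The narrow domains and greater depth belong to bham359_362 and not to bham470, the other wild-type library. That library held 27.4 M reads and enriched domains of a median 8200 bp. The part of depth and domain width in the difference was not tested.

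Rpl7, Rpl9 and Rpl28, all of the large subunit, were among the 17. Rpl9 had -0.00749 and 0.00941 in the TDG KD libraries, -0.00386 and -0.00255 in the siRNA control libraries, and 0.0277 and 0.0241 in the wild-type libraries. Its siRNA control values were below the library mean and its wild-type values well above it. The siRNA control minus wild type difference was -0.0291 with an SE of 0.00787 (limma, Benjamini-Hochberg adjusted p = 0.399). Rpl28 had a difference of -0.0276 and Rpl7 the most negative one of the 72 members, -0.0385, with the same adjusted p. Others of the 17 were Rpl3, Rpl7a, Rpl10a, Rpl13a, Rpl14, Rpl18, Rpl22, Rpl23, Rpl37, Rplp0 and Rplp1. In the gene bodies the median difference was -0.0130 over 67 members, and 57 were lower in the control. There 0 were called, against 0% of all genes, and 22 (32.8%) had an unadjusted p below 0.05, each lower in the control, against 13.5%.

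Other genes of translation were described in the same way, from lists made by symbol. Of 76 mitochondrial ribosomal protein genes 9 (11.8%) were enriched in both TDG KD libraries, 32 (42.1%) in both siRNA control libraries and 29 (38.2%) in both wild-type libraries. For 55 initiation and elongation factor genes, among them the Argonaute genes Eif2c1 to Eif2c4 that share the symbol, the counts were 4 (7.27%), 16 (29.1%) and 23 (41.8%). For 35 aminoacyl-tRNA synthetase genes they were 5 (14.3%), 11 (31.4%) and 14 (40%), and for 28 genes of ribosome biogenesis 9 (32.1%), 8 (28.6%) and 12 (42.9%). The cytoplasmic ribosomal proteins, with 15.3%, 25% and 45.8%, had the lowest share in the siRNA control and the highest in the wild type of these lists. Set against genes of like GC, 49 of 76 mitochondrial ribosomal protein genes (64.5%), 40 of 55 factor genes (72.7%), 20 of 35 synthetase genes (57.1%) and 18 of 28 biogenesis genes (64.3%) were below the median, beside 84.7% of the cytoplasmic ribosomal proteins. No test of a list against another was made.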

How the data were processed

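The authors placed reads on mm9 with BWA (the submitters' processing notes name version 0.6.1, and CASAVA), kept reads with a single place, and called domains per library against the shared input with rseg. The deposited score of a domain is the average surplus of pulldown over input reads across its 100 bp bins. The last column, a further score, was not used. Library totals, from 20.4 to 45.9 M uniquely placed reads, were read from the study's supplement. Counts behind single windows are not in these values, so no counting interval was given.

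From these domains, scores were averaged over TSS ± 1 kb and over gene bodies of at least 500 bp, centred on the library mean and divided by the M of reads (Python 3.11.15, NumPy 2.4.6, pandas 2.3.3). Genes came from GENCODE M1, promoter sequences from mm9, with starts compared with RefSeq promoters by exact match (51 of 72 members placed, 42 within 200 bp). All 6 libraries entered 1 limma 3.58.1 fit (R 4.3.3) over 21153 genes for starts and 18551 for bodies, with Benjamini-Hochberg adjustment and 2 contrasts. The study describes the 2 libraries of a condition as biological replicates. The scripts were tested on simulated data. Named members were those enriched in all or none of the libraries, the 5 highest and 5 lowest by mean percentile, any called by limma, the 5 largest and 5 smallest non-overlapping TDG KD minus siRNA control differences, and a list by known role. Results for a few genes are not reported here. Others named were chosen after their values were seen. The members and lists were chosen with earlier results of these data known. Alternatives covered the rule for an enriched window, the window, the start, scaling, the prefix of the library names and each library left out.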

Additional observations from a re-analysis of the deposited data

How the results depend on the processing

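The count of members enriched in both libraries was 6 in TDG KD, in place of 11, and 21 in wild type, in place of 33, when the lowest 25% of enriched domains were dropped, and the count in all 6 libraries was 3, in place of 10. The count enriched in none was 7, in place of 11, by the TSS base and 3 by at least 1 bp of the window. Leaving out each library gave 13 to 37 for TDG KD (37 without bham480), 24 to 30 for siRNA control, 43 to 48 for wild type, 10 to 16 for all libraries (16 without bham480) and 11 to 20 for none (20 without bham359_362).

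With the library mean left in, 0 members had TDG KD above siRNA control, in place of 13, and 17 below, in place of 7 (0.695% and 30.8% of all genes), the median difference was -0.00408, in place of 0.00393, and that between siRNA control and wild type -0.0241, in place of -0.0173. Percentiles gave 26 members with siRNA control below wild type, in place of 47. Leaving out each library gave 18 to 44 above, 11 to 26 below and a median difference of -0.000792 to 0.00683 for TDG KD against siRNA control, negative without ear003. For siRNA control against wild type it gave 51 to 66 below and a median difference of -0.0234 to -0.0103. A condition with 1 library left makes non-overlap easier to reach, so these counts are higher by construction.

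By limma with Benjamini-Hochberg adjustment 0 members were called in any of 48 alternatives, in fits where a lone library is assumed to vary like the others. The prefix of the library names as a block could be fitted in the 4 siRNA libraries and gave no value for siRNA control against wild type. The labels give the libraries no replicate numbers, so no block other than this prefix was fitted. Of 320 values of 40 named members under alternatives, 294 moved by less than the spread between replicates. The RefSeq start, alternatives of the counts in all or none, and those of the median differences were chosen after seeing the data. With 2 libraries per condition, domains of very different width and the unconfident state in bham480, small differences at single genes were not detectable.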

Other observations

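Relatives of the members outside the symbol rule also differed among themselves. Fau, which encodes a ubiquitin-like protein fused to a protein of the small subunit, was enriched in 5 libraries, with an excess per M reads of 0.0133 and 0.0312 in the TDG KD, 0.00949 and 0.00859 in the siRNA control and 0.0496 and 0.0215 in the wild-type libraries. Both values of the wild type exceeded those of the siRNA control at Fau.

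The copies Rpl10l and Rpl39l were enriched in none of the 6 libraries, with mean percentiles of 17.7 and 19.0, and Rps27l and Rpl3l in 3 each. Rpl10l lay in 39.1% GC over 100 kb and Rpl3l in 50.2%. The X-linked genes Rpl10, Rpl36a, Rpl39 and Rps4x, kept apart from the autosomal members, were enriched in none of the 6 libraries. Rpl10 had 0.00284 and -0.00288 in the TDG KD libraries, -0.00306 and -0.00247 in the siRNA control libraries, and -0.00413 and 0.00264 in the wild-type libraries, all next to the library mean.

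The 28 members with a snoRNA gene inside held 56 of them and had a median mean percentile of 47.8, against 52.2 in the 44 members without, and the 2 sets overlapped over nearly their whole range, 7.87 to 92.4 and 19.6 to 92.8.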
